A study of Mus musculus with 3 samples.

Results

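The genes described here encode the Myb transcription factors, Myb, Mybl1 and Mybl2, together with Lin9, Lin37, Lin52 and Lin54, the Lin proteins of the MuvB complex through which Mybl2 acts on cell cycle genes. The rule that picks them uses gene names and no measured value, although it was written with earlier results of these data known. All 7 had a probe set of their own on the array, and 19938 genes were measured in all. Myb and Mybl2 lay above the background of the arrays, as did Lin37, Lin52 and Lin54, whereas Mybl1 and Lin9 did not.

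The samples were ureteric duct cells from CD-1 embryos of Theiler stage 18 (10.5 days post coitum), bred from time-mated mice carrying the transgene Tg(Hoxb7-EGFP)33Cos. Its Hoxb7 promoter drives green fluorescent protein in the nephric duct and the structures that grow from it, and the fluorescent cells were sorted after dissection and trypsin treatment. Each of the 3 samples came from 1 duct, was not pooled, and was hybridised to 1 array after 1 round of RNA amplification. The source is labelled ureteric trunk and the titles say duct, and the labels leave the sex of the embryos open. All 3 samples form a single group, so the data allow no comparison between conditions. Nothing says that the ducts came from separate embryos, so the p-values reflect the variation among these samples alone, and that variation may be technical.

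Myb is known as a regulator of blood stem cells and of epithelial crypts, and in the ureteric bud it is a gene of the growing tip that depends on Etv4 and Etv5 below the receptor Ret. Mybl1 is best known from male meiosis, and Mybl2 is found in most dividing cells. In resting cells the MuvB proteins join the pocket proteins Rbl1 and Rbl2 and the E2f4 or E2f5 factors in the DREAM complex, which represses genes of the cell cycle. In dividing cells MuvB leaves the pocket proteins, binds Mybl2 and then Foxm1, and activates genes of the G2 phase and mitosis. Lin54 is the MuvB protein that contacts DNA, at a short sequence called the cell cycle genes homology region (CHR), while E2F factors bind a GC-rich site.

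The promoters of the members are shown because E2F sites and CHR elements are the sequences read by the complexes to which the Lin proteins belong. RefSeq promoter windows (GRCm38.p6, 250 bases before to 50 after each start site) were found for 5 of the 7 members, and those of Mybl1 and Lin9 were not analysed here. An E2F site was searched on both strands in 4 spellings. The spelling TTGGCGG ends in G, and the related spelling TTGGCGC ends in C. The remaining spellings searched were TTCGCGC with a central CG and, with a run of C, the spelling TTCCCGC of the same length. A CHR element was searched on both strands in its usual spelling TTTGAA and in a less usual one, TTCGAA, which reads the same on both strands. An E2F spelling can overlap another on the opposite strand. Each line gives 60 bases on the gene's strand, and capitals mark the matches.
Myb (chr10:21160985-21161044, minus strand): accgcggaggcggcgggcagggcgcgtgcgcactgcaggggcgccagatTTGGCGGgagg
Mybl2 (chr2:163054575-163054634, plus strand): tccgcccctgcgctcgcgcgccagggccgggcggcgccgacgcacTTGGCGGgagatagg
Lin52 (chr12:84451448-84451507, plus strand): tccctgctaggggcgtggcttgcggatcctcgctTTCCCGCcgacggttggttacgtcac
Lin54 (chr5:100498694-100498753, minus strand): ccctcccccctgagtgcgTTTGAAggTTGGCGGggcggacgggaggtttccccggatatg

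The stretches of Myb, Mybl2 and Lin52 end at the base before the start site. Their E2F sites begin 11, 15 and 26 bases before it. The Lin54 stretch lies 180 to 121 bases before the start site of one of its windows, and holds a CHR element and an E2F site side by side. Lin37 (not shown) had a CHR element 197 bases before its start site and an E2F site just after it. All 5 members with a window thus held an E2F site, against 11.6% of 27025 genes in the promoter table and 20.8% of the genes there that were above background. By window the count was 5 of 6, against 10.2% of all windows, since the other Lin54 window held a CHR element alone. The spelling TTGGCGG was found in 4 of the 5 members, against 3.12% of all genes. The plan took the 4 spellings together, so the count of this spelling alone was unplanned and is a description of these promoters. A CHR element was found in 2 of the 5, Lin37 and Lin54, against 21.7% of all genes. Member windows had a median GC content of 65.5%, against 52.7% for all windows, and the part of base composition in these shares was not tested.

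Signals are log2 values as the authors deposited them. The background of an array was the 95th percentile of 1210 probe sets for olfactory and vomeronasal receptors, 5.70, 5.73 and 5.71 on arrays 1, 2 and 3. Their 99th percentile, a stricter cutoff, averaged 6.38. A gene was called above background when limma's one-sided test gave a Benjamini-Hochberg adjusted p under 0.05. By this rule 11194 genes (56.1%) were called, a background share against which the counts below are to be read. Probe sets differ in affinity, so signals do not rank the transcript amounts of different genes. The identical value stood on all 3 arrays for 50.8% of genes ("one value" below), and their p-values are too small.

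Myb read 6.54, 7.001 and 6.67 on arrays 1, 2 and 3. It was highest on array 2, and on each array it exceeded both percentiles. Its mean of 6.74 ± 0.24 (SD, n = 3) stood 1.02 ± 0.10 (SE) log2 units over the mean cutoff (limma, adjusted p = 0.00187). Mybl2, the member of dividing cells, read 7.71, 7.02 and 8.32, so that it was lowest on array 2 and highest on array 3. This is a 2.46-fold difference in signal between samples of the same group. Its mean of 7.68 ± 0.65 (SD, n = 3) stood 1.97 ± 0.31 (SE) over it (limma, adjusted p = 0.00644).

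Mybl1 read 6.45 on arrays 1 and 2 and 5.42 on array 3. The value on arrays 1 and 2 lay above the 99th percentile of receptors and that on array 3 below the 95th, so the arrays fell on opposite sides of background. With a mean of 6.11 ± 0.60 (SD, n = 3) it did not pass (limma, adjusted p = 0.205). The deposited value of Mybl1 on arrays 1 and 2, 6.45257, was also held by 57 and 61 other probe sets on those arrays. Whether such shared values are specific to a gene was not tested.

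**Figure D1:**
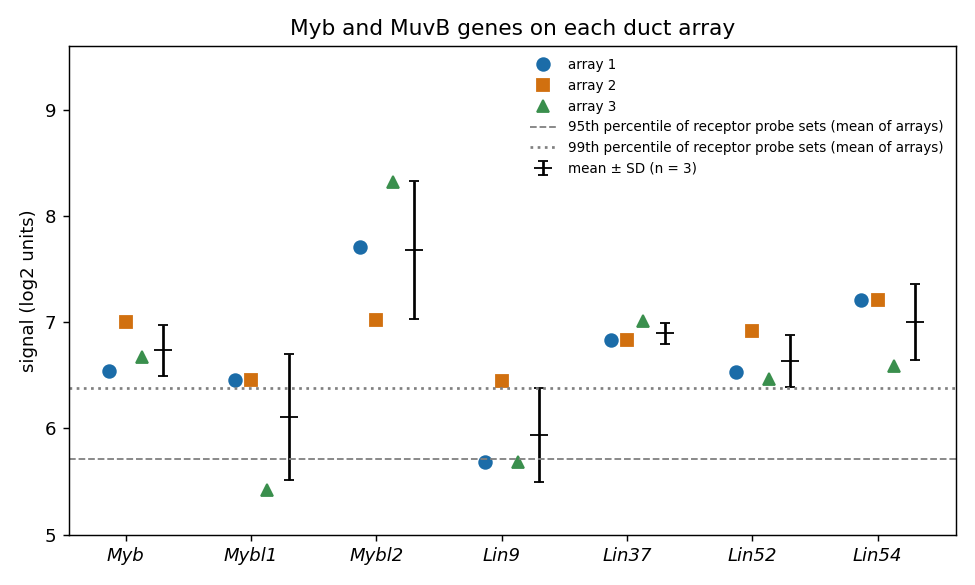
Log2 signal of each member on arrays 1 (circles), 2 (squares) and 3 (triangles), with the mean and SD (n = 3) in black and the 95th and 99th percentiles of receptor probe sets as broken lines. Myb, Mybl2, Lin37, Lin52 and Lin54 lie above both lines on every array, while Mybl1 lies below both on array 3 and Lin9 exceeds them on array 2 alone.

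Of the 4 Lin genes, 3 passed. Lin37, a subunit needed for repression by DREAM, read 6.83, 6.83 and 7.01, the smallest range of any member. Its mean of 6.89 ± 0.10 (SD, n = 3) stood 1.18 log2 units over the mean cutoff (limma, adjusted p = 0.000196). Lin54, the DNA-binding subunit, read 7.21 on arrays 1 and 2 and 6.59 on array 3. It was low on array 3, as Mybl1 was, but stayed above background there (mean 7.001 ± 0.36, SD, n = 3; limma, adjusted p = 0.00366).

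Lin52, the subunit whose phosphorylation by Dyrk1a directs MuvB to the pocket proteins, read 6.53, 6.92 and 6.47, highest on array 2 like Myb. Its mean of 6.64 ± 0.24 (SD, n = 3) passed (limma, adjusted p = 0.00269). A further Lin52 probe set, annotated with the same 4 accessions, gave the identical values on arrays 1 and 2 and 6.43 on array 3, so the pair is not independent evidence. Against the stricter cutoff Lin52 no longer passed (limma, adjusted p = 0.118).

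Lin9, the MuvB scaffold to which Mybl2 binds, read 5.68, 6.45 and 5.68. It exceeded the cutoff on array 2 alone, and did not pass at 5.94 ± 0.44 (SD, n = 3; limma, adjusted p = 0.283). Its value on arrays 1 and 3, 5.67973, was also held by 75 and 84 other probe sets. Members that passed shared values as well, since the array 1 values of Lin52 and Mybl2 were held by 18 and 4 other probe sets and the array 2 value of Lin52 by 1, which was its own further probe set. In the fit without array 3, Mybl1 and Lin9 were called as well (7 of 7 members, beside 51.9% of all genes). But limma then gave all genes a common spread, so that the spread of each gene was ignored.

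In all, 5 of 7 members passed (71.4%), beside 56.1% of all genes, and the same 5 exceeded the cutoff on all arrays, beside 57.7% of all genes. They also exceeded the 99th percentile on all arrays, beside 38.1% of all genes. Tested against the 99th percentile, 4 of 7 passed (Myb, Mybl2, Lin37 and Lin54), beside 36.1% of genes. Myb passed there only narrowly (limma, adjusted p = 0.0461). With the cutoff raised by 1 log2 unit 0 of 7 passed in limma at the adjusted threshold and 2 at an unadjusted p under 0.05, while 28.3% of all genes passed. The median of the members' mean signals was 6.74, against 6.04 over all genes.

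No member held one value on all arrays, whereas 50.8% of genes did. Mybl1, Lin9, Lin37 and Lin54 were tied on a pair of arrays, so their SD may be understated, and 28.9% of genes were of that kind. The range over the arrays was 1.30 log2 units for Mybl2, 1.03 for Mybl1, 0.77 for Lin9, 0.62 for Lin54, 0.46 for Myb, 0.45 for Lin52 and 0.18 for Lin37. Among genes within 0.25 log2 units of the same mean, the share with a smaller range was 98.1% for Mybl1, 96.7% for Lin9 and 95.7% for Mybl2. It was 85.0% to 86.8% for Myb, Lin52 and Lin54 and 61.5% for Lin37. The genes compared include those with one value, whose range any varying gene exceeds, so these shares are raised. Their median range was 0.0 for Mybl1 and Lin9, 0.18 for Mybl2, 0.046 for Myb and 0.074 for Lin37.

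The members differed in the array on which they were highest. Myb, Lin9 and Lin52 were highest on array 2, where Mybl2 was lowest. Mybl1, Lin52 and Lin54 were lowest on array 3, where Mybl2 and Lin37 were highest. Array 2 minus the mean of arrays 1 and 3 was 0.40 log2 units for Myb and -0.99 for Mybl2. Among 3156 other genes that passed and held 3 different values, those whose deviations over the 3 arrays came closest to those of Myb were Sgo1, Eef1e1, Lrrc19, Pdcd10 and Smc2, at Euclidean distances of 0.019 to 0.048 log2 units. In all, 34 genes (1.08%) came within 0.1 units, and no more is read from a likeness over 3 arrays.

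The markers of the labelled tissue were above background, and so were those of endothelium. All 13 duct markers passed, among them the calcium-binding protein gene Calb1 at 11.71 ± 0.03 and the transcription factor gene Gata3 at 9.43 ± 0.20 (SD, n = 3). The epithelial adhesion gene Epcam read 9.05 and the lowest, the ligand gene Wnt9b, 6.96, each with one value. All 8 endothelial markers passed too, with Emcn at 10.07 ± 0.69, Cdh5 at 9.10 ± 0.58, Kdr at 8.36 ± 0.59 and the lowest, Esam, at 6.05 ± 0.09 (SD, n = 3). Each of the 8 was lowest on array 2, and their mean signal was 8.22, 7.44 and 8.25 on arrays 1, 2 and 3. Of the 7 duct markers that varied between arrays, 4 were lowest on array 2 too, beside 2069 of 9809 varying genes in all. Mybl2 was also lowest on array 2, while Myb was highest there. The part of endothelial RNA in the Mybl2 signal was not tested, and in bulk samples fewer cells of a type and less RNA per cell cannot be told apart.

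Myb is also a gene of blood cells, so blood markers were read beside it. Of 10 markers of blood progenitors 7 passed. The pan-leukocyte gene Ptprc at 4.16, Runx1 at 5.07 and Spi1 at 5.55, each with one value, did not. Lmo2 at 8.02 ± 0.41 (SD, n = 3), Gfi1b at 6.87 (one value) and Tal1 at 6.58 (one value) had the highest signals in that list. Lmo2 read 8.49, 7.72 and 7.86 on arrays 1, 2 and 3. Lmo2 and Tal1 are known in endothelium too, and the part of endothelial RNA in their signals was not tested. The list's mean was 6.13, 6.06 and 6.10 on arrays 1, 2 and 3.

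Embryonic globin genes read highest on array 1. Hbb-y read 10.02 there against 5.31 and 5.45 on the other arrays, Hba-x read 8.89 against 5.97 and 5.84, and Hbb-bh1 6.41 against 4.40 and 4.33. Myb was lowest on that array. Of 7 red cell markers 1 passed, the receptor gene Epor at 6.02 ± 0.04 (SD, n = 3), 0.31 log2 units over the mean cutoff. Hbb-y and Hba-x stood 1.21 and 1.19 over it but did not pass, with SDs of 2.68 and 1.72 (n = 3). Hba-x exceeded the cutoff on each array and Hbb-y on array 1 alone. Their failed calls go with this wide spread and do not show a signal at background on array 1. Alas2 and Ermap stood 0.03 over the mean cutoff, and the means of Hbb-bh1 and Klf1 lay below it. Of 8 leukocyte markers, the fractalkine receptor gene Cx3cr1 was the 1 that passed, at 6.54 (one value). Tyrobp at 5.41 ± 0.08 and Cd68 at 6.31 ± 0.51 (SD, n = 3) did not, and Adgre1 was lowest at 4.09 (one value). Cd68 nevertheless exceeded the cutoff on each array, though only just on array 1, at 5.71.

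**Figure D2:**
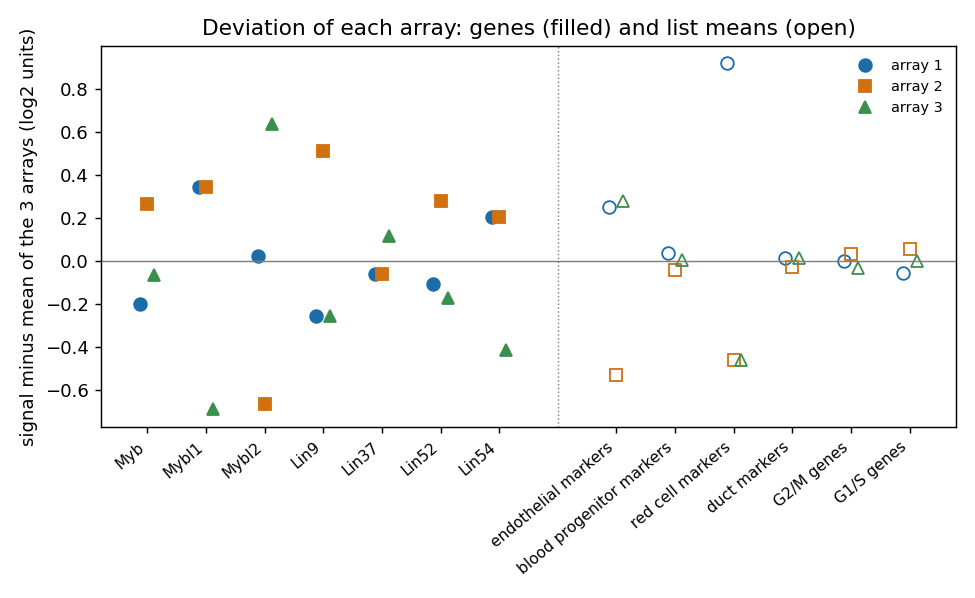
Signal on each array minus the mean of the 3 arrays, in log2 units, for the 7 members (filled) and for the mean of 6 gene lists (open). The mean of the endothelial markers and Mybl2 are lowest on array 2, and Myb, Lin9 and Lin52 stand highest there. The mean of the red cell markers is highest on array 1, as were 3 of the 7, the globin genes.

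The partners of the MuvB proteins were nearly all above background. Of 9 genes, 8 passed. The exception was the pocket protein gene Rbl2, whose one value of 5.71 lay at the cutoff, while its relative Rbl1 read 6.52 (one value). Of the E2F factors of DREAM, E2f4 read 7.01 ± 0.01 and E2f5 7.10 ± 0.25 (SD, n = 3). Their dimer partners Tfdp1 and Tfdp2 read 9.85 ± 0.09 and 8.55 ± 0.04 (SD, n = 3), and the other Tfdp1 probe set read 8.28. Rbbp4, the histone-binding subunit of MuvB, read 8.87 ± 0.09 (SD, n = 3). Dyrk1a, the kinase that assembles DREAM, read 8.65 (one value), and Foxm1, which follows Mybl2 on mitotic genes, 7.72 (one value). The other Dyrk1a probe set read 6.79.

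All 22 measured genes known from other cells as targets of Mybl2, MuvB and Foxm1 in G2 and mitosis passed. Topoisomerase gene Top2a read 10.79 ± 0.32, the mitotic kinase gene Cdk1 10.02 ± 0.17, its cyclin gene Ccnb2 9.86 ± 0.14 and the lowest, the centrosome kinase gene Nek2, 6.31 ± 0.18 (SD, n = 3). A second Top2a probe set read 3.51. Of the 18 targets that varied between arrays, 1, 5 and 5 were highest on arrays 1, 2 and 3, and 6, 3 and 8 were lowest. Of 9809 varying genes in all, 2166, 2386 and 2603 were highest on these arrays and 1928, 2069 and 2712 lowest. The list's mean was 8.65, 8.68 and 8.62 on arrays 1, 2 and 3. All 13 measured genes of replication and S phase entry also passed. Pcna, the sliding clamp, read 11.23 ± 0.19, Rrm2 9.71 ± 0.21, Mcm6 9.44 ± 0.25 (SD, n = 3), and E2f1 was lowest at 5.87 (one value).

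Promoters are shown for the 5 mitotic genes with a CHR element in the last 60 bases before the start site, to set the letters read by Lin54 beside those of the members. Of 18 mitotic genes with a window, 13 (72.2%) held a CHR element, against 21.7% of all genes, and 3 held an E2F site. Of 12 replication genes 0 held a CHR element and 7 (58.3%) an E2F site. Many of these genes entered such lists because of these complexes, so the shares are not independent of the elements.
Cdk1 (chr10:69352913-69352972, minus strand): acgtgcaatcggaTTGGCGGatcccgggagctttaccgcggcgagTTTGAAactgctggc
Top2a (chr11:99024190-99024249, minus strand): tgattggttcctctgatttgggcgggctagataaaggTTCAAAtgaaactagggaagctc
Cdc20 (chr4:118437344-118437403, minus strand): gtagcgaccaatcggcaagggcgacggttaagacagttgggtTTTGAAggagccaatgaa
Ube2c (chr2:164769869-164769928, plus strand): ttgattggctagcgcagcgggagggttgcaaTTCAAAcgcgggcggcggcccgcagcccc
Prc1 (chr7:80294416-80294475, plus strand): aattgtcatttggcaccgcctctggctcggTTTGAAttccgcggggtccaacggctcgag

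The stretches end at the base before the start site, for Prc1 that of the downstream of its windows. The Cdk1 stretch held an E2F site and a CHR element, and the others held a CHR element alone. In Top2a and Ube2c the element lies on the opposite strand and so reads TTCAAA. None of the 5 members with a window had a CHR element in the last 60 bases, where 3.95% of all genes had one. So low a share in all genes leaves little to read from its absence in 5. An E2F site lay there in 3 of the 5 members, beside 2.95% of all genes. A match is a description of letters and not a bound site.

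**Figure D3:**
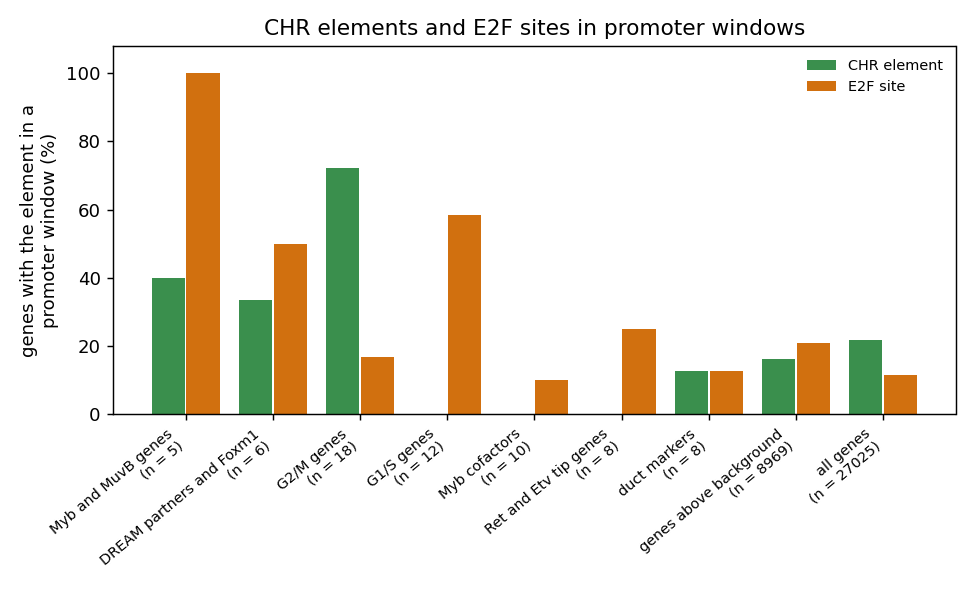
Share of genes whose promoter window holds a CHR element (green) or an E2F site (orange), for gene lists, for genes above background and for all genes, with the number of genes that have a window under each name. The E2F bar reaches 100% for the 5 members and the CHR bar is highest, at 72.2%, for the mitotic genes.

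Genes of the Ret pathway, to which Myb belongs in the tip, passed in 10 of 10 cases. Ret read 7.001 ± 0.18, the transcription factor genes Etv5 7.24 ± 0.02 and Etv4 5.89 ± 0.02 (SD, n = 3), and the co-receptor gene Gfra1 6.86 (one value). Etv4 stood only 0.18 log2 units over the mean cutoff and exceeded the 99th percentile on 0 arrays. The other Etv5 probe set read 6.12. Genes that depend on Etv4 and Etv5 as Myb does were Cxcr4 at 8.06 ± 0.19 and Mmp14 at 7.94 ± 0.12 (SD, n = 3), and Met at 7.81 (one value). Cxcr4 and Mmp14 were lowest on array 2, where Myb was highest. The signals of Dusp6, Spry1 and Wnt11 were 7.84 ± 0.21, 6.52 ± 0.08 and 5.99 ± 0.05 (SD, n = 3). Wnt11 too exceeded the 99th percentile on 0 arrays.

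Cofactors and modifiers of the Myb protein passed in 12 of 12 cases. The coactivator genes Crebbp and Ep300, whose KIX domains bind Myb, read 9.08 ± 0.02 and 8.79 ± 0.27 (SD, n = 3). Kmt2a at 8.74 (one value), Men1 at 7.19 ± 0.0043 and Psip1 at 9.55 ± 0.01 (SD, n = 3) encode proteins of a complex with Myb. The kinase genes Nlk at 9.44 ± 0.28 (SD, n = 3) and Hipk2 at 8.22 (one value), and the ubiquitin ligase subunit gene Fbxw7 at 8.87 ± 0.57 (SD, n = 3), act in the breakdown of Myb. The other Fbxw7 probe set read 7.34. Further proteins that bind Myb or act with it were encoded by Ppid at 10.17 ± 0.02, Taf12 at 7.65 ± 0.40 and Mybbp1a at 7.23 ± 0.08 (SD, n = 3). Cebpb, a partner of Myb in myeloid cells, was lowest at 6.04 (one value). That value was shared with another gene, Nanos3, and exceeded the 99th percentile on 0 arrays.

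Targets described for Myb in blood cells passed in 6 of 8 cases. Gata3, the duct gene given above, led that list, Cd34 read 8.78 ± 0.29 and Myc 8.21 ± 0.03 (SD, n = 3). The T cell gene Cd4 at 5.11 (one value) and the recombinase gene Rag2 at 4.03 ± 0.08 (SD, n = 3) did not pass. Targets described for Mybl1 in spermatocytes passed in 2 of 11 cases, or 18.2% beside 56.1% of all genes. These were the mitochondrial piRNA factor gene Pld6 at 7.57 and Tdrd9 at 5.85, each with one value. Stag3 at 5.35 ± 0.08 (SD, n = 3) and the lowest, Mael, at 3.56 (one value) did not pass.

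**Figure D4:**
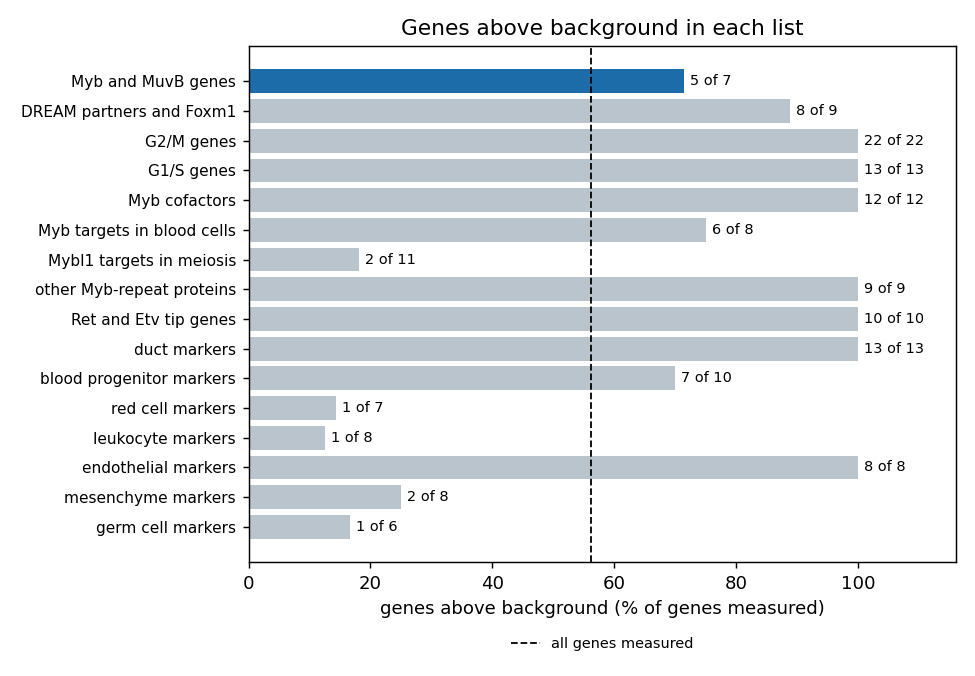
Share of measured genes above background in each gene list, with counts beside the bars and the share of all genes (56.1%) as a broken line. The members stand at 5 of 7, the cell cycle lists at 22 of 22 and 13 of 13, and the Mybl1 targets of meiosis at 2 of 11.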

How the data were processed

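The data are 1 Affymetrix array for each of 3 samples. The authors deposited 1 log2 signal per probe set and array for 35557 probe sets (log2 scale read from the range of the values, medians 5.85 to 5.90). The submitters' processing notes name Affymetrix Expression Console. For the algorithm, its version, the filters and the genome build, nothing is given in the sources used here. An identical value on all arrays was held by 14102 probe sets (39.7%). The platform annotation gave a single symbol to 21789 probe sets, several to 1621 and none to 12147. Of the single-symbol probe sets 21698 matched RefSeq (GRCm38.p6) by Entrez number. Where a gene had several probe sets, the one of highest mean was used.

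In limma 3.58.1 under R 4.3.3, an intercept was fitted to each value less its array's cutoff, with eBayes and Benjamini-Hochberg adjustment over 21789 probe sets. Tested on simulated data with a spread of 0.116 log2 units and no ties, the step called 100% of 50 probe sets set 0.25 units above the cutoff and 0% of 50 set 0.5 units below it. That spread was common to all simulated probe sets. The members other than Lin37 had SDs of 0.24 to 0.65, so the 100% does not describe them. Mybl1, 0.40 units above the mean cutoff, did not pass. The false rate for genes without transcript is unknown. Precision is limited by having 3 arrays.

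The members and the other lists (16 lists with the members, 168 genes, 160 measured) were chosen with earlier results of these data known. Genes named were all members, partners, tip genes and cofactors, and of other lists the 3 highest, the lowest and those that did not pass where these were 3 or fewer. Beyond this rule, Klf1, Alas2 and Ermap of the red cell list were named too. Mitotic promoters were picked after their elements were seen. Genes without a single-symbol probe set were not analysed here. Alternatives covered the cutoff, the background probe sets, the choice of probe set, the moderation, ties, centring, a filter and leaving out each array.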

Additional observations from a re-analysis of the deposited data

How the results depend on the processing

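The members' calls changed with the height of the cutoff. Those of Mybl1 and Lin9 also changed when array 3 was left out, a fit in which limma gave all genes a common spread. Myb, Mybl2, Lin37 and Lin54 passed under every alternative run except the cutoff raised by 1 log2 unit. Myb passed only narrowly at the 99th percentile (limma, adjusted p = 0.0461), and Lin54 without array 2 (limma, adjusted p = 0.0312). With the raised cutoff Myb, Mybl2, Lin37 and Lin54 lay 0.02, 0.97, 0.18 and 0.29 log2 units above it and Lin52 -0.074. There 0 members passed (limma, adjusted p of Mybl2 0.0789). Lin52 also failed at the 99th percentile. Mybl1 and Lin9 read -0.27 and -0.44 at the 99th percentile and -0.60 and -0.78 with the raised cutoff. They passed once the cutoff was the 30th percentile of every probe set, where 75.3% of all genes passed. With each array left out in turn, Lin9 read -0.021 (without array 2) to 0.35 (without array 3). Without each array in turn the members' count was 5 to 7 and that of all genes 10354 to 11002.

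The count of all genes was 7193 at the 99th percentile and 5647 with the raised cutoff. At the 99th percentile the list counts that moved by over 1.5 times were Mybl1 targets 1, blood progenitors 3, red cells 0, mesenchyme 1 and germ cells 0. With the raised cutoff they were Mybl1 targets 1, tip genes 6, blood progenitors 2, red cells 0, leukocytes 0, endothelium 5, mesenchyme 0 and germ cells 0. At the 90th percentile red cells gave 3 and leukocytes 2, and with the 30th percentile of every probe set Mybl1 targets gave 4, red cells 5, leukocytes 3 and mesenchyme 4. Mesenchyme gave 1 with olfactory receptors alone. With the spread of tied probe sets from untied ones, Mybl1 targets and mesenchyme gave 1 each and germ cells 0. Without each array in turn Mybl1 targets gave 1 to 2, red cells 1 to 3, leukocytes 1 to 2 and mesenchyme 1 to 2. The cause was not tested. With TTTGAA alone as the CHR element, 68.4% in place of 73.7% of mitotic promoter windows held it. The planned alignment of the Myb proteins was not run. No paired analysis was possible because the samples form a single group.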

Other observations

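Other proteins with Myb-like or SANT repeats, which share the fold of the Myb DNA-binding domain but serve in splicing, telomeres or chromatin, passed in 9 of 9 measured cases, beside 56.1% of all genes. The telomere protein gene Terf1 read 9.28 (one value), the splicing factor gene Cdc5l 9.08 ± 0.06 and the histone deubiquitinase gene Mysm1 8.32 ± 0.02 (SD, n = 3). Cdc5l had 11 probe sets, of which the dimmest read 7.41. Mypop was lowest at 6.32 (one value).

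Markers of primordial germ cells passed in 1 of 6 cases, Nanos3 at 6.04 (one value), while Prdm1 at 5.04, Pou5f1 at 4.59 and Ddx4 at 4.00, each with one value, did not. The deposited value of Nanos3, 6.03524, was also that of Cebpb and the median of the mean signals over all genes. It exceeded the 99th percentile on 0 arrays, and whether it is specific to either gene was not tested. In the mesenchyme list 2 of 8 passed, Col1a1 at 6.75 (one value) and Gdnf at 5.80 ± 0.05 (SD, n = 3), while Pdgfra at 5.88 ± 0.18 (SD, n = 3) and the lowest, Foxd1 at 4.44 (one value), did not.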
